A study of Mus musculus with 150 samples.

Results

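The measurements below concern 32 genes that are characteristic of cells other than neurons, followed through 150 single somatosensory neurons of the mouse. The genes form 6 sets: 5 genes of satellite glia (Fabp7, Apoe, Sox10, Cdh19, Kcnj10), 5 of myelinating Schwann cells (Mbp, Pmp22, Prx, Egr2, Ncmap), 6 of fibroblasts (Col1a1, Col1a2, Col3a1, Dcn, Lum, Pdgfra), 5 of endothelial cells (Pecam1, Cldn5, Cdh5, Kdr, Flt1), 6 of macrophages (Ptprc, C1qa, C1qb, Cx3cr1, Csf1r, Lyz2) and 5 of red blood cell precursors (Hba-a1, Hba-a2, Hbb-bs, Hbb-bt, Alas2). They were chosen by name, and all 32 were among the 54082 genes of the count table. Their summed level in a cell measures how much RNA of such other cells was counted together with the neuron, although a neuron's own transcription of a listed gene enters the sum as well. The study compared neurons that innervate glabrous skin, the hairless skin of the paw, with neurons of hairy skin, and 45 cells carried the label hairy, 1 both, and the others glabrous. All cells came from CD1 mice, an outbred stock, of postnatal day 4 (33 cells) or day 5 (117 cells), with no genotype or treatment named. The labels spread the cells over 10 litters, 2 plates and 5 libraries, do not name the animal, and do not say from which ganglion a cell came. By which tracing or other criterion the skin labels were given is not stated in them.

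In a sensory ganglion each neuronal cell body is wrapped by satellite glia, which buffer potassium around it and supply it with lipids. Further out, axons of large mechanosensory neurons are ensheathed by myelinating Schwann cells, and fibroblasts lay down the collagen of the capsule and of the tissue between fascicles. Capillaries, resident macrophages and the blood inside the vessels complete the tissue. When a neuron is isolated by hand or by suction, pieces of its glial sheath and free RNA from lysed neighbours can travel with it. Nefh, the heavy neurofilament subunit, is abundant in large myelinated neurons and scarce in small ones, and it was used here to tell these neuron types apart.

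Cells held between 395811 and 1053854 counts and a median of 14183.5 detected genes. Levels are given as CPM, each count scaled to a common total per cell (10000 CPM are 1% of a cell's counts). One count equalled 0.949 to 2.53 CPM, and a count of 0 allows a level of up to 2.85 to 7.58 CPM, by counting error alone. Neuronal genes were present nearly throughout: Uchl1, Prph, Avil and Stmn2 were counted in 150 cells, Tubb3, Snap25 and Rbfox3 in 149, and Isl1 in 145. In 8 cells, however, Tubb3 (neuronal beta tubulin) was at or under 443.9 CPM, against a median of 2569 CPM over all cells, and 4 of these 8 also had under 10000 detected genes. They were glabrous cells 53, 69, 70, 73 and 90 and hairy cells 27, 32 and 37, and the comparisons of neuron types and skin labels are given without them as well. A threshold of 500 CPM of Nefh set 46 Nefh-low cells (median 122.3 CPM, highest 377 CPM) against the Nefh-high remainder (median 1750 CPM, lowest 623.2 CPM). No cell lay between 400 and 600 CPM. All 8 cells poor in Tubb3 were Nefh-low. Nefh-low cells comprised 20 glabrous and 26 of the 45 hairy cells.

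Taken over all 32 genes, the median cell carried 0.3685% of its counts in the listed genes, and the highest, glabrous cell 73, 25.78%. The median share was 0.0865% for the satellite glia set, 0.154% for the Schwann set and 0.0217% for the fibroblast set. Erythroid, macrophage and endothelial genes lay far lower, with medians of 0.00169%, 0.000609% and 0.000274%. The last 2 medians correspond to a few counts per cell. Each set was spread over the cells in its own way, and the sets are described in turn.

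Satellite glia transcripts were counted in nearly all cells, over a wide range of levels. Apoe, the lipid carrier that glia secrete, was counted in 147 cells, with a median of 738.3 CPM and quartiles of 80.13 and 2412 CPM. Fabp7, a fatty acid binding protein of immature and satellite glia, was counted in 146 cells with a median of 83.45 CPM. The other members were Sox10, the transcription factor of the neural crest glial lineage (121 cells, median 20.12 CPM), Kcnj10, the inward rectifier that takes up potassium (median 7.671 CPM), and Cdh19, a glial cadherin (86 cells, 3.724 CPM). Summed over the set, 70 of the 150 cells exceeded 1000 CPM while 12 were under 10 CPM and 2 had no count at all. Hairy cell 32 had the highest sum, 14574 CPM or 1.457% of its counts, with 1686 CPM of Fabp7 and 12218 CPM of Apoe. That cell had 14.11 CPM of Tubb3 and 19.76 CPM of Snap25. The highest 10 cells together held 28.25% of all satellite glia CPM, against 34.1% for the Schwann set and 54.08% for the fibroblast set. The 5 genes varied together across cells, with Spearman's rho between 0.658 and 0.902 for the 10 pairs, the highest for Fabp7 with Apoe. In the 30 cells with the least of the other 4 genes, median Apoe was 8.91 CPM, and in the 30 cells with the most, 3192 CPM.

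Among the Schwann cell genes, Pmp22 stood apart. Pmp22 (chr11:63128982-63159547, plus strand, mm10), which encodes peripheral myelin protein 22 of compact myelin, was counted in all 150 cells, with a median of 1169 CPM and quartiles of 889.4 and 1758 CPM. In the 30 cells with the lowest sum of the other Schwann genes, at or under 72.2 CPM, Pmp22 still had a median of 1016 CPM, and in the 30 cells with the highest it had 2528 CPM. Its rho with the rest of the set was 0.436, and with the satellite glia sum 0.172. Pmp22 was thus also high in the cells with little of the other Schwann transcripts, and it was higher still where those were abundant. The main Schwann sums are therefore given without it as well.

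The other Schwann genes were carried by fewer cells at very unequal levels. Mbp, myelin basic protein, was counted in 149 cells, with a median of 327 CPM and a maximum of 31838 CPM in hairy cell 27, whose Tubb3 was 141.7 CPM. Prx, periaxin of the Schwann cell membrane, was counted in 131 cells (median 14.31 CPM), and its maximum of 1500 CPM lay in glabrous cell 90, which had 4957 detected genes and no count of Snap25. Ncmap, a protein of non-compact myelin, was counted in 112 cells (median 4.765 CPM). Egr2, the transcription factor that switches on myelination, was counted in 61 cells, its median therefore being 0. The Schwann sum had a median of 1544 CPM over all cells with Pmp22 and 368.9 CPM without it. Without Pmp22, the highest 10 cells held 51.8% of all Schwann CPM. Mbp rose and fell with Prx (rho 0.872) and Ncmap (rho 0.799) across cells and less closely with Egr2 (rho 0.517) and Pmp22 (rho 0.435).

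The fibroblast set had 3 collagen genes at its core. Col3a1, the chain of type III collagen, was counted in 142 cells (median 57.38 CPM), Col1a2 in 139 (62.89 CPM) and Col1a1 in 132 (17.75 CPM), the last 2 being the chains of type I collagen. Col1a1 and Col3a1 varied together across cells with rho 0.879, and Col1a2 with Col3a1 with rho 0.868. Dcn and Lum encode decorin and lumican, small proteoglycans that bind collagen fibrils. Dcn was counted in 136 cells (median 33.56 CPM), and Lum had a median of 4.24 CPM. Dcn followed Col1a1 with rho 0.544 and Mbp with rho 0.489, whereas its rho with the satellite glia genes lay between -0.02 (Apoe) and 0.192 (Sox10). Pdgfra, the receptor that marks fibroblast precursors, was counted in 38 cells. In glabrous cell 71 the set reached 1.872% of the counts, with 6422 CPM of Col3a1, 5874 CPM of Dcn, 3014 CPM of Col1a2, 1913 CPM of Lum and 262.3 CPM of Pdgfra. That cell alone held 44.29% of all Pdgfra CPM, and its Tubb3 was 746 CPM.

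Endothelial transcripts were close to the counting limit. Pecam1, an adhesion molecule of the vessel wall, was counted in 95 cells with a maximum of 35.83 CPM. Kdr and Flt1, the receptors for vascular endothelial growth factor, were counted in 35 and 20 cells, Cldn5, the tight junction claudin of capillaries, in 17, and Cdh5, vascular cadherin, in 13. Hairy cell 32 had the highest values of Kdr (139.7 CPM) and Flt1 (169.3 CPM), and it had the highest satellite glia sum. The defining junction genes were nearly absent while Pecam1 was widespread. Pecam1 had a median of 2.32 CPM in the 30 cells with the lowest sum of the other 4 genes, all at 0, and 3.95 CPM in the 30 cells with the highest.

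Macrophage genes were as sparse. C1qb and C1qa, subunits of the first complement component, were counted in 74 and 38 cells, Lyz2, lysozyme, in 72, Csf1r, the receptor for macrophage growth factor, in 46, Cx3cr1, the fractalkine receptor, in 33, and Ptprc, the leukocyte antigen CD45, in 14. Of the 150 cells, 30 had no count of any of the 6 genes and 8 reached 100 CPM in sum. The highest was hairy cell 17 with 399.3 CPM, including 97.55 CPM of C1qb and 114.6 CPM of Lyz2, in a cell with 1726 CPM of Tubb3. C1qa and C1qb followed each other with rho 0.601.

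Globin transcripts were distributed in the most unequal way. In glabrous cell 73, 24.77% of all counts were erythroid, with 86182 CPM of Hba-a1, 54006 of Hba-a2, 98472 of Hbb-bs, 8609 of Hbb-bt and 469 CPM of Alas2, the first enzyme of haem synthesis in erythroid cells. This cell had 4848 detected genes and 2.627 CPM of Tubb3. Glabrous cell 70, of the same litter I, carried 4.957% erythroid counts and 55.9 CPM of Tubb3. Of all erythroid CPM in the 150 cells, 78.95% lay in glabrous cell 73 and 98.75% in the highest 10 cells. The next cells by this sum, glabrous 5 with 3807 CPM and glabrous 14 with 3173 CPM, had 2892 and 1972 CPM of Tubb3, so a high globin level was found both in cells poor in neuronal RNA and in cells rich in it.

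Each globin chain is encoded by a pair of nearly identical genes, which limits what counts per copy can mean. Hba-a1 (chr11:32283511-32284465) and Hba-a2 (chr11:32296489-32297298) lie on the plus strand of chromosome 11, and Hbb-bs (chr7:103826534-103828096) and Hbb-bt (chr7:103812524-103813996) on the minus strand of chromosome 7 (mm10, GENCODE M21). Over 429 coding bases Hba-a1 and Hba-a2 differ at 1 base, an identity of 99.8%, and the longest identical run is 380 bases. Over 444 coding bases Hbb-bs and Hbb-bt differ at 1 base as well, with an identical run of 416 bases. Reads were 75 bases long, per the labels, so most reads from the coding part cannot be given to one copy. The stretches around the differing base are shown because they are where a coding read can be told apart, with that base in capitals, 5′ to 3′ on the coding strand of the GENCODE transcripts.
Hba-a1: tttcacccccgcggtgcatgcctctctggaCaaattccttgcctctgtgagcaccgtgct
Hba-a2: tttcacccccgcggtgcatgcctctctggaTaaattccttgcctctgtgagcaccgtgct
Hbb-bs: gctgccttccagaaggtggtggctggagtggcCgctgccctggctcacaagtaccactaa
Hbb-bt: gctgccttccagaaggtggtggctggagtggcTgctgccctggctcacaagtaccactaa
The alpha stretches span coding bases 351 to 410 and the beta stretches bases 385 to 444, counted from 1 at the start codon. Untranslated parts were not compared, and values of single copies are uncertain.

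Summed per chain, alpha globin was counted in 135 cells and beta globin in 66, and 74 cells had alpha without beta while 5 had beta without alpha. A further 10 cells had neither chain. Over all cells without a beta count, these 10 included, the median alpha level was 7.672 CPM and the highest 70.07 CPM. In the 5 cells with the highest erythroid sums, 125342 alpha counts stood against 97455 beta counts, 1.286 alpha per beta. In the other 145 cells there were 3522 alpha and 1319 beta counts, 2.67 alpha per beta. The ratio in the low cells thus differed from that in the cells with abundant globin. Ratios in the 5 highest cells ran from 1.077 to 2.461, the last in hairy cell 38, which is near the value of the other cells. Alas2 was counted in 33 cells and had rho 0.12 with the globin sum.

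**Figure D1:**
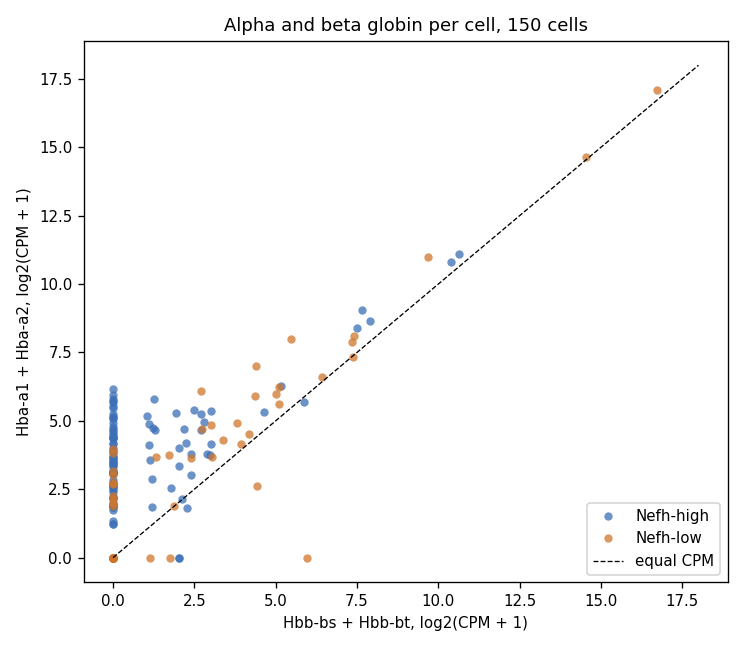
Alpha globin (vertical) against beta globin (horizontal) in each of the 150 cells, log2(CPM + 1), with Nefh-high cells in blue, Nefh-low cells in orange and a dashed line at equal CPM. The highest cells lie near the line, and 74 cells stand on the left edge with alpha and no beta count.

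Several sets varied together across cells and others did not. Over 150 cells, Spearman's rho of the sums was 0.555 for Schwann with fibroblast, 0.412 for satellite glia with fibroblast, 0.324 for satellite glia with Schwann, 0.36 for fibroblast with macrophage and 0.337 for fibroblast with erythroid. Endothelial sums had rho between -0.02 and 0.18 with the other sets. Their members differed. Pecam1, the most widely counted, had rho -0.045 with the Schwann and -0.083 with the fibroblast sum. The sparse members had 0.237 and 0.257 (Kdr), 0.2 and 0.286 (Flt1), 0.212 and 0.17 (Cldn5) and 0.147 and 0.155 (Cdh5). Without Pmp22, rho rose to 0.791 for Schwann with fibroblast and to 0.46 for Schwann with satellite glia. All these values are descriptions over cells that share litters, libraries and the CPM denominator. With Pmp22 kept in the sum, as for the value of 0.555, rho for Schwann with fibroblast was 0.505 without the 8 cells poor in Tubb3. It was 0.385 within all Nefh-high cells and 0.602 within all Nefh-low cells. Within litters E_F_G, I and P_Q, the litters of 22 or more cells, it was 0.677, 0.509 and 0.753.

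The member genes show where the link between sets lay. Mbp had rho 0.812 with Col1a1, 0.81 with Col1a2 and 0.771 with Col3a1, as high as within its own set, and Col1a2 had rho 0.768 with Sox10 and 0.641 with Apoe. Hbb-bs followed Mbp with rho 0.577 and Col1a1 with 0.559, higher than its rho of 0.48 with Hba-a1. Pecam1 followed no other member beyond 0.292 (Flt1). Tubb3 was lower where the glial sums were higher, with rho of -0.462 for satellite glia, -0.553 for Schwann and -0.427 for fibroblast sums, which share the CPM denominator with it. Detected genes had rho 0.335 with the satellite glia sum and -0.217 with the Schwann sum.

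**Figure D2:**
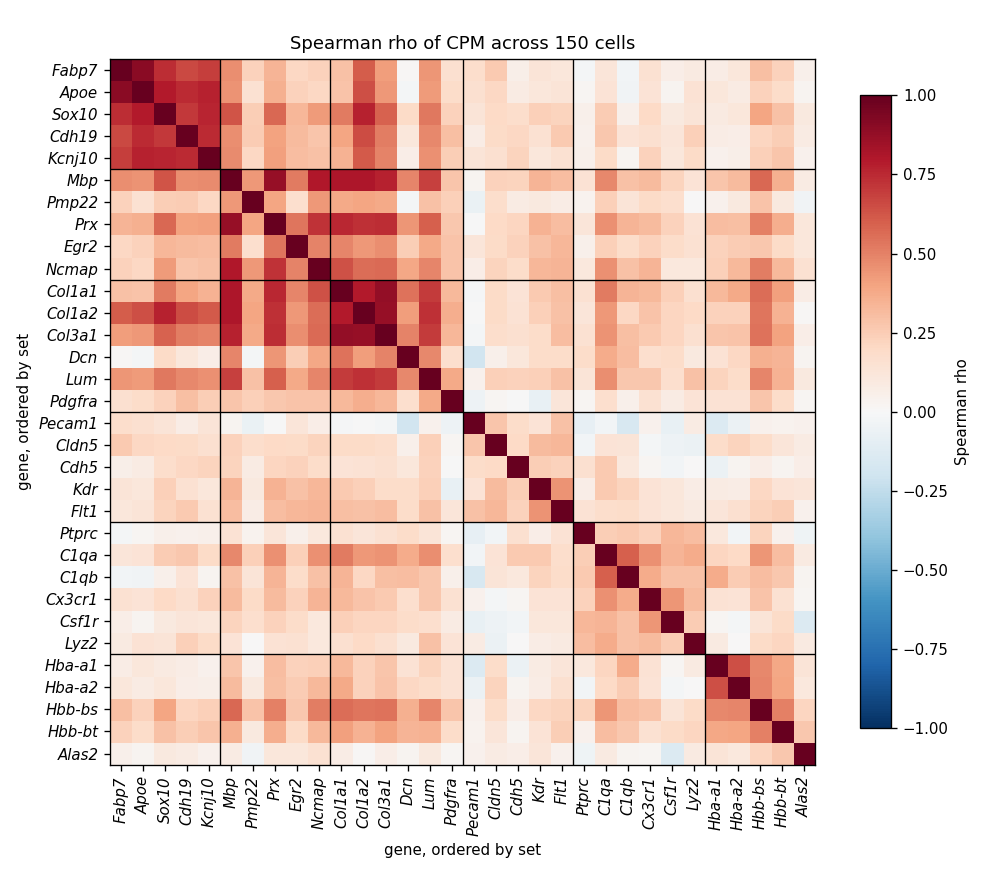
Spearman's rho of CPM across 150 cells for each pair of the 32 genes, ordered by set, with black lines between sets and colour from -1 (blue) to 1 (red). The satellite glia block is evenly high, Mbp, Prx and Ncmap run together with the collagens, and Pmp22, Dcn, Pecam1 and Alas2 are pale in most of their rows.

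How far high sums of different sets fell in the same cells depended on the pair of sets. Lists of the 15 highest cells shared from 1 to 7 cells, with the fewest for satellite glia with Schwann and with macrophage. Unrelated lists also share some cells by chance, so a count of 1 does not show that sets avoid each other. Of the 15 cells with the highest satellite glia sum, 1 was among the 15 highest by Schwann sum (6.667% of each list) and 3 among the 15 highest by fibroblast sum. Schwann and fibroblast lists shared 7 cells (46.67% of each), as did Schwann and macrophage lists. Among the 142 cells with at least 500 CPM of Tubb3, the shared cells numbered 1, 2, 7 and 7 for these pairs of lists. High satellite glia and Schwann sums could fall in different cells. Glabrous cell 57 had 7323 CPM of satellite glia genes with 741.8 CPM of Schwann genes. Hairy cell 26 had 1406 CPM of satellite glia genes with 21037 CPM of Schwann genes. Both had over 1000 CPM of Tubb3, with 1826 and 1275 CPM.

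Outside the 32 genes, those most like each set were sought among 11850 genes of mean CPM at or above 5, by rho with the set's sum over 150 cells. For satellite glia they were Sostdc1 (0.922), Acsbg1 (0.911), Ctsc (0.91), Ttyh1 (0.904), Gm10046 (0.903) and Prss35 (0.895). For Schwann cells they included Cnp (0.754), an enzyme of myelin, Pmp2 (0.734), a lipid binding protein of peripheral myelin, Fxyd6 (0.704), Cuedc2 (0.678) and Tpm4 (0.665). For fibroblasts they included Cnp (0.764), Sparc (0.752), a collagen-binding matrix protein, Plekhb1 (0.733), Col5a1 (0.726) and Apod (0.717). Cnp thus stood on both of these lists. For the macrophage set, C1qc, the remaining C1q subunit, came first with 0.525, and for the erythroid set Parva (0.492) and for the endothelial set Shc4 (0.479) led at values that a sparse sum allows.

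Litters differed in the RNA of other cells. The median satellite glia sum was 58.28 CPM in litter C_D and 72.72 CPM in litter H, between 596.3 and 1409 CPM in the other 8 litters, and highest in litter I. The median Schwann sum ran from 1312 CPM in litter H to 4309 CPM in litter M, and without Pmp22 from 65.57 CPM in litter H and 99.58 CPM in litter C_D to 1707 CPM in litter M. Litters C_D and H thus had the lowest medians of both glial sets once Pmp22 was left out. Fibroblast sums had medians from 62.09 CPM in litter C_D to 1242 CPM in litter O. Within most litters single cells spanned much of the whole range. The share of Nefh-low cells moved with litter, with 0 of 10 cells in C_D and 6 of 8 in each of L and M, and its part in these differences was not tested. Libraries differed within a litter as well: in litter I the satellite glia median was 845.8 CPM in library 3 (8 cells) and 1839 CPM in library 4 (23 cells), and in litter K it was 1647 CPM in library 4 (8 cells) and 49.18 CPM in library 5 (3 cells). With these few cells the values overlap widely.

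**Figure D3:**
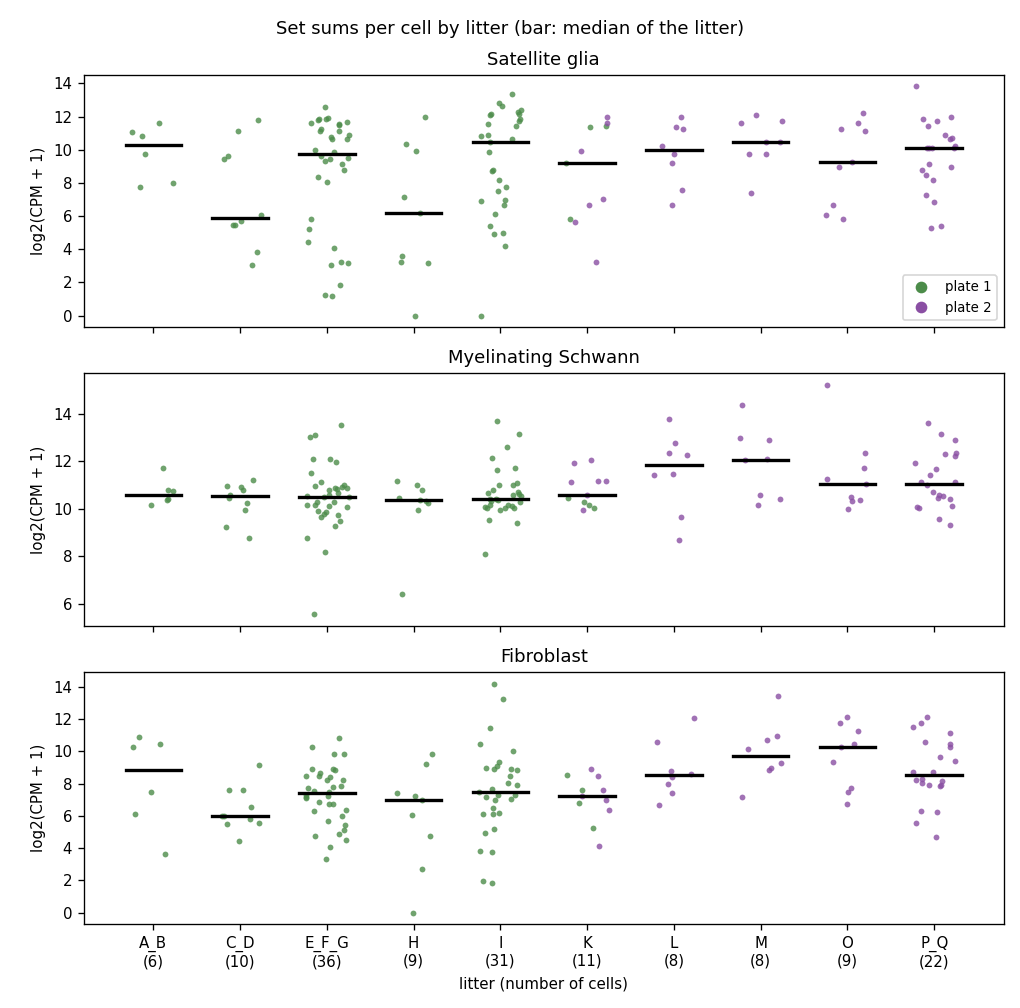
Sums of the satellite glia, Schwann and fibroblast sets in each cell, log2(CPM + 1), by litter, with plate 1 in green, plate 2 in purple and a bar at the litter median. Satellite glia medians of litters C_D and H lie under those of the other 8 litters, and cells of most litters overlap.

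Schwann and fibroblast genes took a larger share of the counts in Nefh-low than in Nefh-high cells. Over cells, the median Schwann sum was 4258 CPM in Nefh-low and 1355 CPM in Nefh-high cells, or 1259 and 235 CPM without Pmp22, and the median fibroblast sum was 660.9 and 153.9 CPM. Satellite glia sums had medians of 1119 and 789.3 CPM, with wide overlap, macrophage sums 7.86 and 4.94 CPM, erythroid sums 19.96 and 15.24 CPM, and endothelial sums 1.77 and 2.88 CPM. Leaving out the 8 cells poor in Tubb3, the 38 remaining Nefh-low cells had medians of 3641 CPM for Schwann, 485.2 CPM for fibroblast and 1108 CPM for satellite glia sums. Their macrophage median was 7.73 CPM and their endothelial median 1.45 CPM. Their erythroid median was 14.89 CPM, no longer above the 15.24 CPM of Nefh-high cells. For Schwann sums the order of the classes was the same on each plate. On plate 1 the Schwann median was 2174 CPM in 21 Nefh-low and 1252 CPM in 75 Nefh-high cells. On plate 2 it was 4938 CPM in 25 and 1532 CPM in 29 cells. Without the cells poor in Tubb3 the Nefh-low Schwann medians were 2174 CPM on plate 1 (17 cells) and 4353 CPM on plate 2 (21 cells). Satellite glia medians changed order, with 652.8 CPM in Nefh-low and 778 CPM in Nefh-high cells on plate 1. On plate 2 they were 1122 and 853.3 CPM. Macrophage medians did so too, with 4.57 and 5.14 CPM on plate 1 and 12.79 and 4.24 CPM on plate 2. Since all values are shares of a cell's counts, more RNA of other cells and less RNA of the neuron itself cannot be told apart. Nefh CPM, which sets the class, is a share of the same total, so the class and the set sums are not independent measures.

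**Figure D4:**
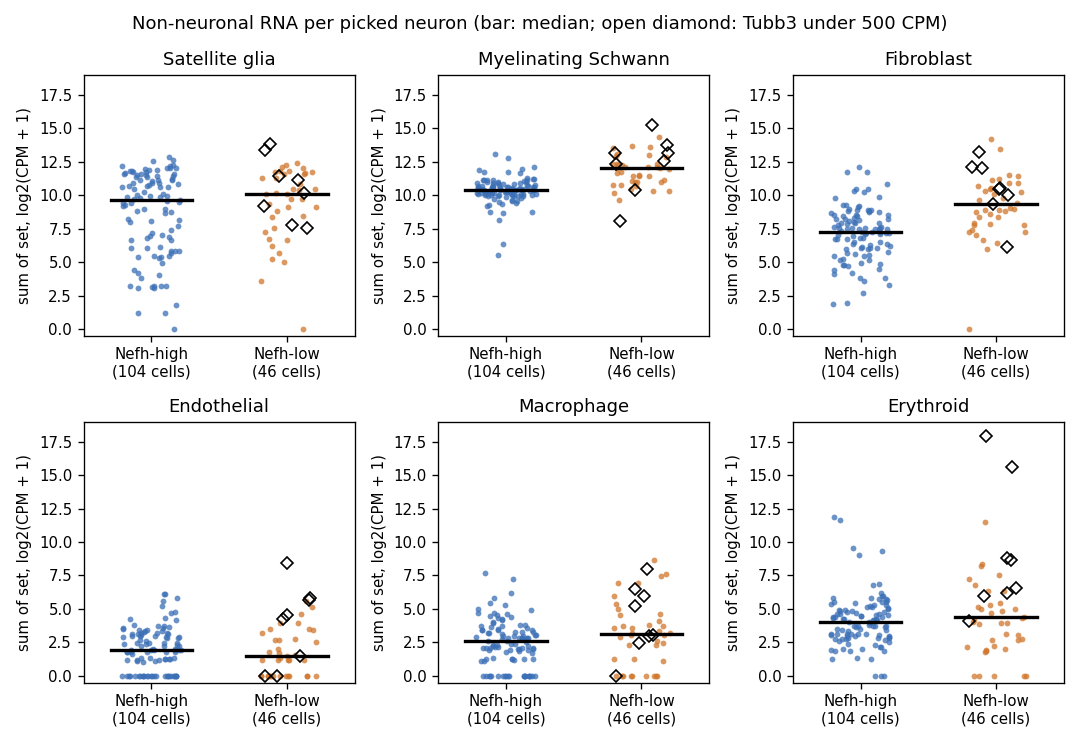
Sum of each of the 6 sets in every cell, log2(CPM + 1), for Nefh-high and 46 Nefh-low cells, with a bar at the median and open diamonds for the 8 cells under 500 CPM of Tubb3. Schwann and fibroblast medians are higher in the Nefh-low cells (4258 against 1355 CPM and 660.9 against 153.9 CPM), and the highest erythroid cells are open diamonds.

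For a test between neuron types, counts were summed per litter and Nefh class in the 7 litters with at least 2 cells of each, 2 to 30 cells per sum, and compared with edgeR's quasi-likelihood test with litter as a block. Of the 32 genes 22 passed the filter on low counts, and 8 of these had an adjusted p under 0.05, all higher in Nefh-low sums. Among all 13135 genes tested, 22.7% were called in either direction, 11.2% higher and 11.6% lower, so calls were common in this comparison. The median log2 difference was 1.66 over the 22 genes, 21 of them positive, and 0.05 over all genes. These values are a description without a test. A gene can pass the filter through the sums of 1 class alone, and many members varied together across cells. By set, the calls were 1 of 5 in satellite glia, 4 of 5 in Schwann cells, 3 of 5 tested in fibroblasts, and none of 1 tested endothelial, 3 macrophage and 3 erythroid genes. The 10 genes that were not tested are Pdgfra, Cldn5, Cdh5, Kdr, Flt1, Ptprc, Cx3cr1, Csf1r, Hbb-bt and Alas2.

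Pmp22 differed most clearly. In Nefh-low sums it ran from 1669 to 4308 CPM with a median of 2568, and in Nefh-high sums from 860 to 1413 CPM with a median of 1078. The ranges did not overlap, and Pmp22 was higher in Nefh-low cells in 7 of 7 litters. The edgeR log2 difference was 1.30 ± 0.15 (SE, adjusted p = 0.000494). The 2 Nefh-high sums of 2 cells each, from litters L and M, were 1413 and 1066 CPM.

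The other Schwann genes called were higher in most litters and lower in litter H. Mbp ran from 79.1 to 8616 CPM (median 2947) in Nefh-low and from 118 to 1780 CPM (median 478) in Nefh-high sums, a log2 difference of 2.39 ± 0.58 (edgeR, adjusted p = 0.0153), higher in 6 of 7 litters. Prx ran from 2.35 to 314 CPM (median 123) and from 5.9 to 62.9 CPM (median 21.4), with a log2 difference of 2.16 ± 0.41 (edgeR, adjusted p = 0.00516), in 6 of 7 litters. These are genes of compact myelin and of the Schwann cell surface. Ncmap had medians of 60.7 and 9.83 CPM and a log2 difference of 2.34 ± 0.69 (edgeR, adjusted p = 0.0345), higher in 5 of 7 litters. Ncmap was not called without litter E_F_G (2.25, adjusted p = 0.0919), I (1.90, 0.0967), M (2.07, 0.0774), O (2.18, 0.0955) or P_Q (2.26, 0.0881). Egr2 was not called, with medians of 6.45 and 4.13 CPM and a log2 difference of 0.62 ± 1.04 (edgeR, adjusted p = 0.707). For all 4 genes other than Pmp22 the ranges of the classes overlapped.

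The 3 collagen genes rose with them. Col1a1 (chr11:94936224-94953042) ran from 9.42 to 437 CPM (median 226) in Nefh-low and from 5.66 to 193 CPM (median 42.9) in Nefh-high sums, with a log2 difference of 2.09 ± 0.50 (edgeR, adjusted p = 0.0147, and 0.0572 without the litter block). Col1a2 ran from 32 to 752 CPM (median 434) and from 9.59 to 241 CPM (median 119), with 1.83 ± 0.27 (edgeR, adjusted p = 0.00146), and both genes were higher in 7 of 7 litters. Litter H had the lowest Nefh-low value of each collagen gene. Col3a1 had a median of 524 CPM in Nefh-low sums and a log2 difference of 1.76 ± 0.48 (edgeR, adjusted p = 0.0256), higher in 6 of 7 litters. It was not called without litter L (1.56, adjusted p = 0.0579), without litter M (1.54, adjusted p = 0.0676) or without the block (2.00, adjusted p = 0.065). The proteoglycans were not called: Dcn had medians of 239 and 49.3 CPM (log2 1.63 ± 0.60, adjusted p = 0.0768) and Lum 54.8 and 9.21 CPM (log2 2.39 ± 0.89, adjusted p = 0.0809).

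Satellite glia genes split. Sox10, which Schwann cells express too, had medians of 61.6 and 18.1 CPM and a log2 difference of 1.32 ± 0.40 (edgeR, adjusted p = 0.0376), higher in 5 of 7 litters. It was not called without litter E_F_G (1.39, adjusted p = 0.0701), I (1.26, 0.0957), M (1.14, 0.092), O (1.08, 0.097) or P_Q (1.12, 0.11). Apoe had medians of 1902 CPM in Nefh-low and 1224 CPM in Nefh-high sums, with a log2 difference of 0.13 ± 0.51 (adjusted p = 0.878), and Fabp7 178 and 111 CPM, with 0.87 ± 0.53 (adjusted p = 0.273). Values of both genes overlapped over nearly the whole range. Cdh19 and Kcnj10 had log2 differences of 1.68 ± 0.60 (adjusted p = 0.0708) and 0.98 ± 0.57 (adjusted p = 0.248).

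Of the sparse sets no gene passed the test as reported. C1qa had medians of 7.66 and 0.564 CPM (log2 2.98 ± 1.30, edgeR adjusted p = 0.133) and C1qb 8.43 and 2.56 CPM (log2 1.37 ± 0.89, adjusted p = 0.299). Pecam1 had medians of 2.53 and 5.31 CPM and the sole negative log2 difference among the tested members, -0.91 ± 0.76 (adjusted p = 0.424). Hbb-bs had medians of 16.7 and 1.48 CPM with a maximum of 12254 CPM in the Nefh-low sum of litter I, which holds glabrous cells 70 and 73 (log2 3.66 ± 1.63, adjusted p = 0.14). Without litter E_F_G the difference of Hbb-bs was 5.84 and called (adjusted p = 0.0304), as it was without the block (7.25, adjusted p = 0.0169). Hba-a1 and Hba-a2 had log2 differences of 0.97 ± 1.10 (adjusted p = 0.561) and 2.03 ± 1.19 (adjusted p = 0.25).

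**Figure D5:**
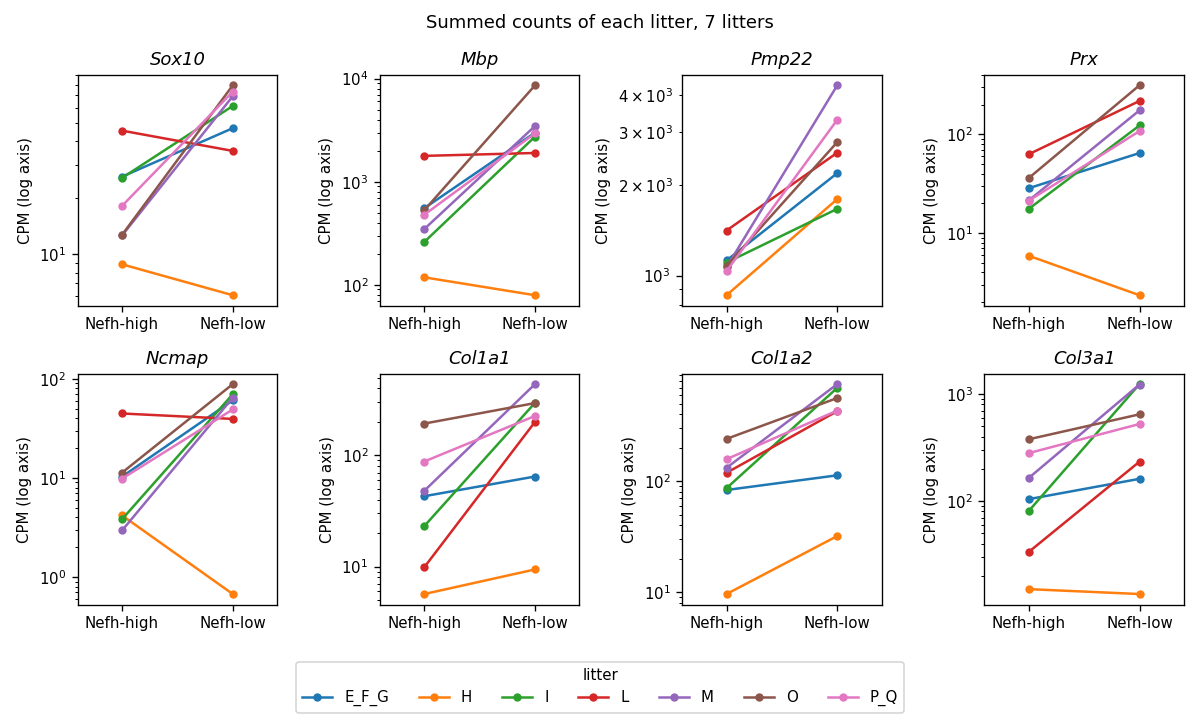
CPM (log axis) of the 8 genes called between neuron types in the summed Nefh-high and Nefh-low cells of each of 7 litters, with 1 line per litter. Pmp22, Col1a1 and Col1a2 lines go up in all 7 litters, whereas litter H goes down for Sox10, Mbp, Prx, Ncmap and Col3a1.

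How many genes were called depended on which cells were included. Without the 8 cells poor in Tubb3, 4 genes were called, Pmp22 (log2 1.16, adjusted p = 0.00061), Col1a2 (1.33, 0.0209), Col1a1 (1.74, 0.0394) and Col3a1 (1.60, 0.0405), whereas Mbp (1.65, 0.0574), Prx (1.31, 0.0942), Ncmap (1.64, 0.165) and Sox10 (0.88, 0.183) were positive but not called. In glabrous cells alone no member was called among 180 genes, with Pmp22 at log2 0.98 (edgeR adjusted p = 0.096). Without litter M, 5 genes were called. Over all genes, 23.1% were called without the cells poor in Tubb3, 1.31% in glabrous cells alone and 18.6% without litter M.

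Other genes of these cell types were tested from lists chosen by name, and their counts stand against the 11.2% higher and 11.6% lower of all genes. Of 12 further Schwann genes tested 5 were higher in Nefh-low sums, among them Dhh, the hedgehog ligand of Schwann cells (log2 2.36 ± 0.40, edgeR adjusted p = 0.00265), and Fa2h and Ugt8a, enzymes of myelin lipid synthesis (2.42 ± 0.42, adjusted p = 0.00396, and 1.84 ± 0.46, adjusted p = 0.0172). Of 12 fibroblast genes tested 6 were higher, among them Lox, which crosslinks collagen (5.08 ± 0.93, adjusted p = 0.00522), Fbn1 (1.26 ± 0.28, adjusted p = 0.0103) and Mgp (2.20 ± 0.54, adjusted p = 0.0167). Among the satellite glia genes tested, S100b was lower (-2.93 ± 0.29, adjusted p = 0.000259). S100b is known from large sensory neurons as well as from glia, and its ranges, 30.7 to 128 CPM in Nefh-low and 532 to 650 CPM in Nefh-high sums, did not overlap. Of 2 macrophage genes tested, 1 mural gene and 5 division genes, those called were all higher: Aif1 of macrophages (1.87 ± 0.43, adjusted p = 0.0125), Acta2 of mural cells (3.26 ± 0.79, adjusted p = 0.0153) and the division genes Ccnb1 (2.64 ± 0.56, adjusted p = 0.00838) and Top2a (2.62 ± 0.74, adjusted p = 0.0297). Of 2 endothelial genes tested Esam was lower (-2.36 ± 0.55, adjusted p = 0.0131). Of 8 neuronal genes Snap25 (-1.53 ± 0.11, adjusted p = 7.5e-05) and Tubb3 (-0.71 ± 0.14, adjusted p = 0.00551) were lower in Nefh-low sums. With 1 or 2 genes tested, a list's count cannot be read against the share over all genes. Without the cells poor in Tubb3, 1 of 11 Schwann genes was higher (Dhh, 2.05, edgeR adjusted p = 0.00685). Of 12 fibroblast genes 2 were higher (Lox, 5.21, adjusted p = 0.00406, and Serpinf1, 0.31, adjusted p = 0.0385). In that setting 1389 of all 13051 genes were called higher, and 23.1% were called in either direction. Fa2h (1.53, adjusted p = 0.247), Ugt8a (0.89, adjusted p = 0.359), Fbn1 (0.86, adjusted p = 0.0934) and Mgp (1.64, adjusted p = 0.113) were then not called. S100b, Aif1, Acta2, Ccnb1, Top2a, Esam, Snap25 and Tubb3 were called in the same direction. Egfl7 of the endothelial list (-0.62, edgeR adjusted p = 0.0339) and Bpgm of the erythroid list (-0.71, adjusted p = 0.0458) were also called lower there.

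Between skin labels none of the 32 genes was called by the reported edgeR test. Counts of hairy and of glabrous cells were summed in the 7 litters with at least 2 cells of each, 20 of the 32 genes passed the filter, and edgeR called 0 of them, against 12 of 12852 genes or 0.0934%, 5 of them higher in hairy sums (0.0389%) and 7 lower (0.0545%). At an unadjusted p under 0.05 there were 1 member and 1277 genes. DESeq2 called 1 of the 20 members among 337 genes. The single gene was Pmp22 in each case. Pmp22 ran from 1464 to 2923 CPM (median 2231) in hairy sums and from 984 to 2406 CPM (median 1086) in glabrous sums, higher in hairy cells in 6 of 7 litters, with a log2 difference of 0.81 ± 0.23 (edgeR, adjusted p = 0.275). In litter L the glabrous value, 2406 CPM from 3 cells that include glabrous cell 90, was above the hairy value of 2252 CPM. Without the 8 cells poor in Tubb3 the difference was 0.87 and Pmp22 was called (edgeR, adjusted p = 0.0357). In that setting 15 of all 12847 genes were called, or 0.117%. With skin label and Nefh class in the model together the Pmp22 difference was 0.38 ± 0.19 (edgeR, adjusted p = 0.913). Within plates it was 0.70 on plate 1 (adjusted p = 0.997) and 0.86 on plate 2 (adjusted p = 0.437).

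Other genes had skin differences of both signs. Apoe had medians of 816 CPM in hairy and 1302 CPM in glabrous sums and was higher in hairy cells in 2 of 7 litters (log2 -0.56 ± 0.34, edgeR adjusted p = 0.634). Mbp had medians of 1050 and 402 CPM (0.77 ± 0.79, adjusted p = 0.799), Col1a2 83.9 and 90.2 CPM (-0.30 ± 0.83, adjusted p = 0.934) and Hbb-bs 7.52 and 0.876 CPM (1.06 ± 1.65, adjusted p = 0.873). The standard errors show how wide these estimates are. Over cells, the Schwann median was 2773 CPM in hairy and 1393 CPM in glabrous cells, and hairy cells were Nefh-low more often. Within Nefh-low cells it was 4577 CPM in 26 hairy and 2231 CPM in 20 glabrous cells, and within Nefh-high cells 1532 CPM in 19 and 1294 CPM in 84 cells. Fibroblast medians within Nefh-low cells went the other way, with 582 CPM in hairy and 775 CPM in glabrous cells. Without the cells poor in Tubb3 the Nefh-low Schwann medians were 4353 CPM in 23 hairy and 2174 CPM in 15 glabrous cells. The fibroblast medians were then 479.7 and 538 CPM. Hairy cells lay mostly on plate 2, so skin label and plate cannot be told apart in these medians over cells. By plate, the Schwann median of all Nefh-low cells was 4938 CPM on plate 2 and 2174 CPM on plate 1.

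Plates were compared in glabrous cells alone, because 35 of the 45 hairy cells lay on plate 2. Litters L, O and P_Q of plate 2 were set against litters A_B, C_D, E_F_G, H and I of plate 1, and litter K, which lay on both plates, was left out. Of the 25 members that passed the filter edgeR called 0, and of all 14169 genes 0, or 0%. At an unadjusted p under 0.05 there were 5 members and 1139 genes, and DESeq2 called 7 genes and 0 members. Those 5 members were Prx and the 4 globin genes. Prx had a log2 difference of 2.93 ± 1.02 (edgeR, adjusted p = 0.615) in favour of plate 2. The globin genes were lower in the litter sums of plate 2. Prx was 497 CPM in litter L, 28.7 in O and 21 in P_Q, against 5.55 to 49.1 CPM on plate 1, so litter L alone was high. Mbp, at log2 1.69 ± 0.88, became -0.40 without litter L, whose glabrous sum of 3 cells includes glabrous cell 90. Hba-a1 was 4.78 to 12.7 CPM on plate 2 and 2.87 (litter H), 42.6 (A_B), 51.8 (E_F_G), 162 (C_D) and 3134 CPM (I) on plate 1, with a log2 difference of -6.22 ± 2.24 (edgeR, adjusted p = 0.615). The groups overlap through litter H. The plate 1 sums include the single cells with the highest erythroid sums, glabrous 70 and 73 in litter I, glabrous 5 in C_D and glabrous 14 in E_F_G. Medians over cells did not show a lower level on plate 2. Over all cells, hairy cells and litter K included, the erythroid median was 12.49 CPM on plate 1 and 18.87 CPM on plate 2. Plate moves with litter, library and in part with age, and these cannot be told apart.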

How the data were processed

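Single somatosensory neurons of CD1 mice had been prepared by a Smart-seq protocol with Nextera XT libraries, per the labels' protocols. FastQC, cutadapt, Salmon and mm10 are named in the submitters' processing notes, without versions, roles or settings. The values are estimated counts per gene and cell, deposited as whole numbers. The sources used here do not state how transcripts were summed to genes or whether lengths were corrected. Names and positions come from GENCODE M21, and globin sequences from its transcripts, using the longest open reading frame.

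CPM used each cell's total count. Counts were summed per litter and level, with at least 2 cells per sum, and tested with edgeR 4.0.16 (TMM, filterByExpr, quasi-likelihood test, Benjamini-Hochberg adjustment over all genes, threshold 0.05), with limma 3.58.1 and DESeq2 1.42.0 as alternatives in R 4.3.3, after the steps were tested on simulated data. SE is the log2 difference divided by the square root of F. SDs or ranges and p-values measure the spread between litters, the highest unit the labels name, and pooled parents or animals within a litter are not named. Litter was the block because the labels give it, and over all genes same-litter sums deviated together with r from -0.0804 to 0.265. Set sums and rho were computed in Python 3.11.15 and carry no test. Full statistics are given for members that passed a test and for the more abundant members of each set, and up to 3 further genes per list that passed, by smallest p. The members, the Nefh threshold and the lists were chosen with earlier results of these data known, and the Tubb3 threshold after seeing these values. Results of some genes are not reported here.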

Additional observations from a re-analysis of the deposited data

Results flagged for a closer look

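In the sums by neuron type, 32 groups of 7 litters were examined for a litter far from the other 6, and 6 were found. Chance gives about 1 in 20 if the groups are independent, which genes that vary together in the same sum are not. In 4 of them the Nefh-low sum of litter H (4 cells) lay far below the others: Sox10 at 6.06 CPM, Mbp at 79.1 CPM, Prx at 2.35 CPM and Ncmap at 0.673 CPM. In the Nefh-high sum of litter H (5 cells), Col1a2 was low at 9.59 CPM. In the Nefh-high sum of litter M (2 cells), Pecam1 was at 0 CPM while the other 6 litters had counts.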

How the results depend on the processing

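Of the members called between neuron types, 8 by the reported test, DESeq2 called 13, no filter on low counts 17, cells of at least 10000 detected genes 4, and a Nefh threshold of 250 CPM 3. Glabrous cells alone gave 0, with fewer cells per sum, and leaving out each litter gave 5 to 9. Leaving out cells under 500 CPM of Tubb3, an alternative chosen after seeing the data, gave 4. Of all genes, the reported test called 22.7%, DESeq2 29.7%, no filter 10.7%, at least 10000 detected genes 23.4% and 250 CPM of Nefh 15.3%. The shares were 1.31% in glabrous cells, 16.6% to 22.2% without 1 litter, 23.1% without Tubb3-poor cells and 24.1% without the block. Between skin labels 0 became 1 with DESeq2, without the filter and without those Tubb3-poor cells. With no replicate block, calls between neuron types numbered 12, Col1a1 and Col3a1 being lost and Hba-a1 (log2 6.31) and Hbb-bs among the gains. Without the block, skin differences were 0.08 for Col1a2, -0.34 for Hba-a1 and -0.65 for Hbb-bs. Over all genes, skin calls were 12 by edgeR, 337 by DESeq2, 342 without the filter and 15 without Tubb3-poor cells. Plate calls were 0 by edgeR and 7 by DESeq2. Calls between neuron types split into 1467 higher and 1521 lower, 1166 and 1820 without TMM, and 490 and 3538 by limma on means over cells.

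Log2 differences that changed sign belonged to members that were not called, and the cause was not tested. Between skin labels Fabp7 (0.03) became -0.15 with 1 cell per sum, -0.18 with Nefh class in the model, -0.1 within plate 1, -0.2 without Tubb3-poor cells and 0.0 without the filter, and C1qb (0.09) became -0.26 with DESeq2, -0.3 with 1 cell per sum, -0.12 by limma and -0.31 in cells of at least 10000 genes. Hba-a1 (0.15) became -0.03 with DESeq2 and -2.35 within plate 1. Limma gave Apoe (-0.56) 0.13 and Col1a2 (-0.3) 0.17. Col1a2 was 0.88 within plate 2, 0.26 in cells of at least 10000 genes and 0.15 without Tubb3-poor cells. Within plate 1 Mbp (0.77) became -0.26, Col3a1 (0.69) -1.05, Pecam1 (-0.38) 0.94 and Hbb-bs (1.06) -2.41. Leaving out litters gave Fabp7 -0.34 to 0.35, Col1a2 -0.91 to 0.28, Pecam1 -0.8 to 0.04, C1qb -0.63 to 0.55 and Hba-a1 -0.42 to 0.75.

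Between neuron types Apoe (0.13) became -0.17 at 250 CPM of Nefh, -0.25 in glabrous cells, -0.03 in cells of at least 10000 genes and -0.21 without Tubb3-poor cells, and Lyz2 (0.24) became -0.06 at 1000 CPM of Nefh, -0.77 with 3 cells per sum, -1.2 in glabrous cells and -0.14 by limma. C1qb (1.37) was -1.03 in glabrous cells, and Hba-a1 (0.97) -0.39 without Tubb3-poor cells. Leaving out litters gave Apoe -0.23 to 0.48 and Lyz2 -0.25 to 0.77.

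Between plates Fabp7 (0.01) became -0.19 without TMM, -0.06 with litter K, -0.07 without the filter, -0.11 in cells of at least 10000 genes and -0.12 without Tubb3-poor cells. In the last 2 settings Pmp22 (0.47) was -0.09 and -0.09 and Col1a2 (1.73) -0.22 and -0.11. Col3a1 (-0.55) was 1.54 in all cells of a litter, 0.45 with 1 cell per sum and 1.17 by limma, Pecam1 (0.84) -0.13 in all cells and C1qb (0.19) -0.16 by limma. Leaving out litters gave Fabp7 -0.95 to 0.4, Apoe -0.16 to 0.75, Mbp -0.4 to 2.15, Pmp22 -0.28 to 0.74, Col1a2 -0.37 to 2.27, Col3a1 -0.84 to 0.12, C1qb -0.63 to 0.65 and Lyz2 -1.46 to 1.04. With counts of 1 to 4 set to 0, the median sum fell from 2.74 to 0 CPM for endothelial and from 6.09 to 0 CPM for macrophage genes, the depth limit of those sets, and without Pmp22 the Schwann median of 1544 was 369 CPM.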
